A study of Mus musculus with 2 samples.

Results

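The mouse genome carries 120 protein-coding vomeronasal type 2 receptor genes, named Vmn2r followed by a number, among 21728 protein-coding gene symbols of the GRCm38 annotation. They were taken by symbol alone, with the first gene model per symbol, and the rule uses no measured value. The 120 genes lay on 8 chromosomes in 19 runs of neighbours less than 500 kb apart. The 9 runs with at least 5 genes, called clusters here, held 98 genes and 11.5 Mb of assembled sequence. The other 22 genes lay in 10 smaller runs. The widest gap joined within a cluster was 463 kb, from Vmn2r61 to Vmn2r62, and the narrowest not joined was 524 kb, from Vmn2r37 to Vmn2r46. Of the 120 genes, 38 were read from the forward strand and 82 from the reverse strand. The annotation held 116 further Vmn2r gene models, most of them annotated pseudogenes, and not all of these lay within the runs.

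Vmn2r genes encode family C G protein-coupled receptors with a long extracellular domain, related to calcium-sensing, metabotropic glutamate and sweet and umami taste receptors. In the basal layer of the vomeronasal organ they sense peptides and proteins, such as major urinary proteins and exocrine-gland secreting peptides, and signal through the Gαo protein and the Trpc2 channel. A basal neuron expresses 1 or a few variable receptors, together with a broadly expressed receptor of the Vmn2r1 to Vmn2r7 group. The neurons studied here belong to the main olfactory epithelium and instead express odorant receptor genes.

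The boundaries come from in situ Hi-C, which reads out pairs of DNA ends found near each other in fixed nuclei. At a boundary, contacts between the sequence on its left and on its right are depleted. There was 1 group: mature olfactory sensory neurons expressing Olfr1507 (also called MOR28), sorted by green fluorescence from the olfactory epithelium of adult MOR28-GFP mice, strain 129P2/OlaHsd, of mixed sex. Cells numbered 170000 and 220000 in the 2 biological replicates. Formaldehyde at 1% and the enzyme DpnII were used, no treatment was listed, and the number of mice per replicate was not stated in the labels used here. The authors pooled both replicates into 1 boundary list, so no value below has a replicate error and no test over samples was possible. The read depth behind the list is unknown. The list holds no expression values, so the cell type could not be checked against marker genes, and vomeronasal neurons were not measured.

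The list held 7367 boundary intervals of 5000 bp, of which 4052 (55.0%) were classed strong and 3315 weak. Each has a strength, the authors' own score, and the sources used here do not give its scale. It ran from 0.20 to 4.26 with a median of 0.563, and the class changed at 0.5. Intervals printed with shares are 95% Wilson intervals and those with counts per Mb are exact Poisson intervals. They cover counting error only, and boundaries and genes are not replicates.

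The Vmn2r clusters held few boundaries, and those they held were mostly weak. Inside the 9 clusters lay 20 boundaries, or 1.75 per Mb (1.07 to 2.70), against 2.94 per Mb in the remainder of the same 5 chromosomes, a ratio of 0.594 (0.363 to 0.917). At the density of the remainder, 33.7 boundaries would lie in that length. Only 3 of the 20 were strong (15%, 5.24 to 36.0), against 55.0% of all boundaries, and their median strength was 0.257 (0.238 to 0.351), against 0.563. Even among weak boundaries the median was higher, at 0.305. Unique sequence was also scarcer in the clusters: 52.2% of 32-base sequences sampled there occurred once in the genome, against 83.6% genome-wide. Its part in the density was not tested. Counted per Mb of such unique sequence, the ratio was 0.952 (0.581 to 1.47).

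Each of the 3 strong boundaries inside clusters parted a single gene at an end of its array from the others. The boundary at chromosome 17, 17915001 to 17920000, had a strength of 1.28, lay in Fpr3, a formyl peptide receptor gene, with Vmn2r90 alone on its left. The boundary at chromosome 3, 64805001 to 64810000, had a strength of 1.30 and lay in an intron of the Vmn2r7 model, 37.3 kb from its transcription start site (TSS). That position depends on the gene model: RefSeq ends Vmn2r7 at 64719602, which puts the boundary outside the cluster and leaves 19 boundaries inside, 2 of them strong. The boundary at chromosome 7, 41690001 to 41695000, had a strength of 0.645, overlapped the pseudogene Vmn2r-ps54 and had Vmn2r57 alone on its left.

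**Figure D1:**
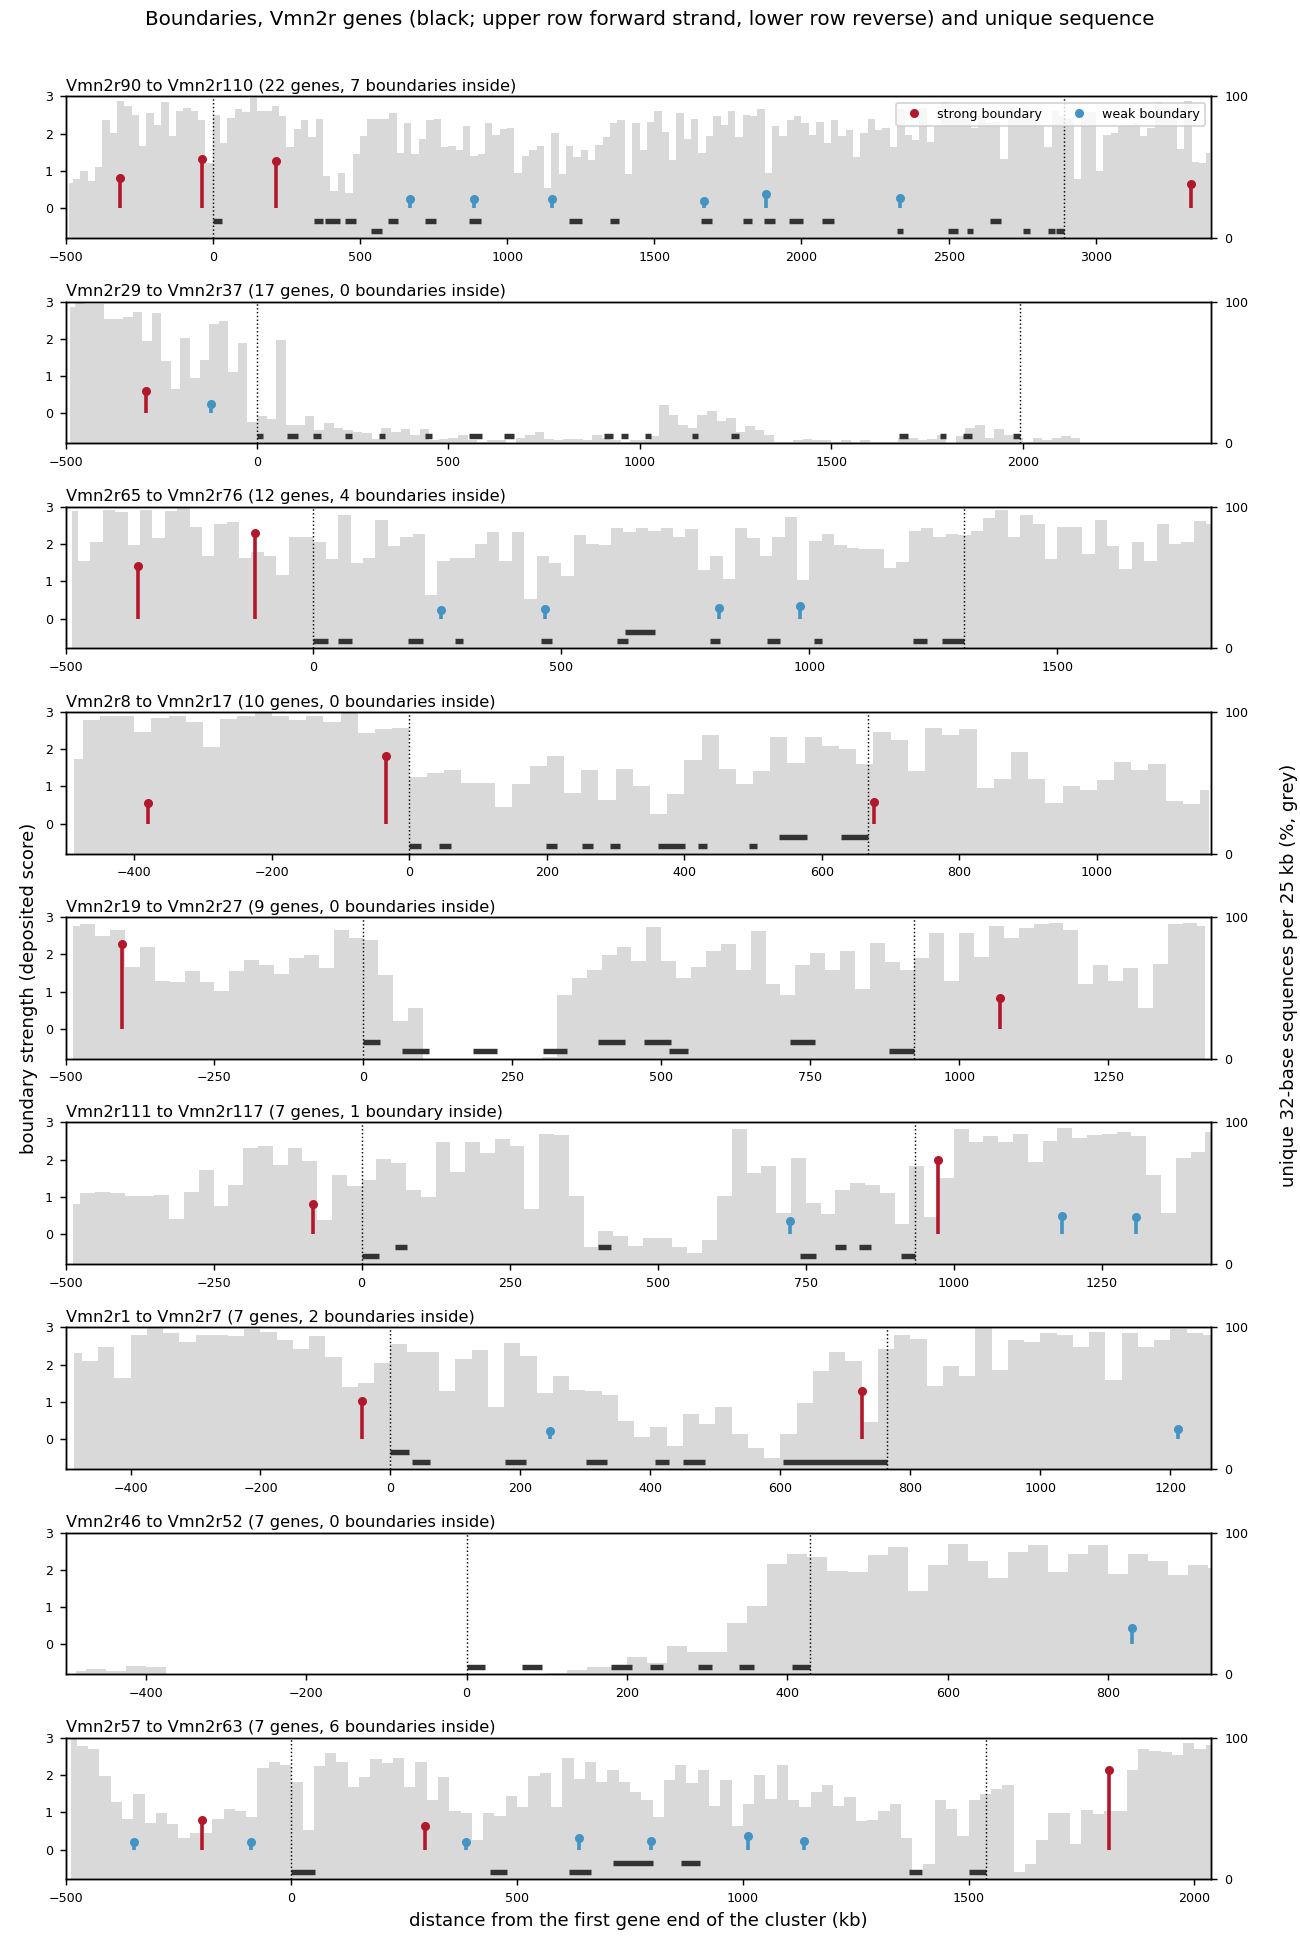
Map of the 9 Vmn2r clusters and 500 kb on each side. The horizontal axis is distance from the first gene end in kb, stems are boundaries with their deposited strength (left axis, red strong, blue weak), black bars are Vmn2r genes (upper row forward strand, lower row reverse), dotted lines are the cluster ends and grey is the percentage of unique 32-base sequences per 25 kb (right axis). The Vmn2r29 to Vmn2r37 and Vmn2r46 to Vmn2r52 arrays, 7.64% and 20.2% unique, hold no boundary, while Vmn2r90 to Vmn2r110, 74.3% unique, holds 7, 6 of them weak.

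Boundaries were spread unevenly over the clusters: 3 clusters held 17 of the 20, and 4 clusters held none. The largest cluster, Vmn2r90 to Vmn2r110 on chromosome 17 (17703747 to 20596423, 22 genes), held 7. Its 6 weak boundaries had strengths of 0.204 to 0.369, and 4 of them overlapped the gene models of Vmn2r96, Vmn2r99, Vmn2r101 and Vmn2r104. The others lay 40.6 kb from Vmn2r93 and 56.8 kb from Vmn2r97, in sequence between genes. This cluster also held the most unique sequence of the 9, at 74.3%.

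The Vmn2r57 to Vmn2r63 cluster on chromosome 7 (41395945 to 42933822) had 6 boundaries for 7 receptor genes, and 13 other protein-coding genes lay within it, more than in any other Vmn2r cluster. Its 5 weak boundaries had strengths of 0.209 to 0.376. Those of 0.310 and 0.242 overlapped exons of Vmn2r59 and Vmn2r60, and those of 0.376 and 0.221 lay 107 kb from Vmn2r61 and 232 kb from Vmn2r62. The Vmn2r65 to Vmn2r76 cluster (chromosome 7, 84935565 to 86246308, 12 genes) had 4 boundaries, all weak, with strengths of 0.222 to 0.349. Exons of Vmn2r69 and Vmn2r72 were overlapped by the boundaries of 0.249 and 0.273.

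The Vmn2r1 to Vmn2r7 cluster on chromosome 3 (64081547 to 64844765) encodes the broadly expressed receptors. Besides the boundary in Vmn2r7 it held 1 weak boundary of 0.221, in the pseudogene Vmn2r-ps4 and 37.8 kb from Vmn2r3. That boundary parted Vmn2r1, Vmn2r2 and Vmn2r3 from Vmn2r4, Vmn2r5 and Vmn2r6. The Vmn2r111 to Vmn2r117 cluster on chromosome 17 (22544504 to 23479699) includes Vmn2r116, the receptor for the male tear pheromone ESP1. It held 1 boundary of 0.351, in the pseudogene Vmn2r-ps133, which set Vmn2r111, Vmn2r112 and Vmn2r113 apart from Vmn2r114 to Vmn2r117.

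The 4 clusters without a boundary were Vmn2r8 to Vmn2r17 on chromosome 5 (10 genes), Vmn2r19 to Vmn2r27 on chromosome 6 (9 genes), and Vmn2r29 to Vmn2r37 and Vmn2r46 to Vmn2r52 on chromosome 7 (17 and 7 genes). At the density of their chromosomes they would hold 1.97, 2.68, 5.86 and 1.26 boundaries. A count of 0 allows up to 1.85 per Mb in the Vmn2r29 to Vmn2r37 cluster and up to 5.53 per Mb in the Vmn2r8 to Vmn2r17 cluster, and their chromosomes had 2.94 and 2.96 per Mb. For the first cluster this limit lies below the chromosome's density. It lies above the 0.547 per Mb of 250 kb windows elsewhere that were up to 50% unique. For the second cluster a difference was not detectable. Nor was it for Vmn2r19 to Vmn2r27 (up to 3.99 per Mb) and Vmn2r46 to Vmn2r52 (up to 8.60 per Mb). Unique sequence made up 57.7%, 49.3%, 7.64% and 20.2% of these 4 clusters in the same order. Without both clusters under 25% unique, a choice made after seeing the data, the density ratio over the remaining 7 was 0.756 (0.462 to 1.17).

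Clusters of the other large chemoreceptor families, joined by the same distance and size rule, gave similar densities. Coding odorant receptor genes with a -ps suffix in the symbol were admitted, which the Vmn2r and Vmn1r symbols did not allow. The ratio to the remainder was 0.594 in Vmn2r clusters, 0.546 in the 10 clusters of 206 Vmn1r genes (the type 1 vomeronasal receptors) and 0.684 in the 33 clusters of 1133 odorant receptor genes. Unique sequence made up 52.2%, 44.4% and 73.5% of these clusters in the same order, and its part in the ratios was not tested. Strong boundaries made up 15% of the 20 in Vmn2r clusters, 35.3% (17.3 to 58.7) of the 17 in Vmn1r clusters and 40.0% (28.6 to 52.6) of the 60 in odorant receptor clusters. The Wilson intervals overlap, and the difference between families was not tested. Median strengths inside clusters were 0.257, 0.440 and 0.374 for Vmn2r, Vmn1r and odorant receptor clusters.

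**Figure D2:**
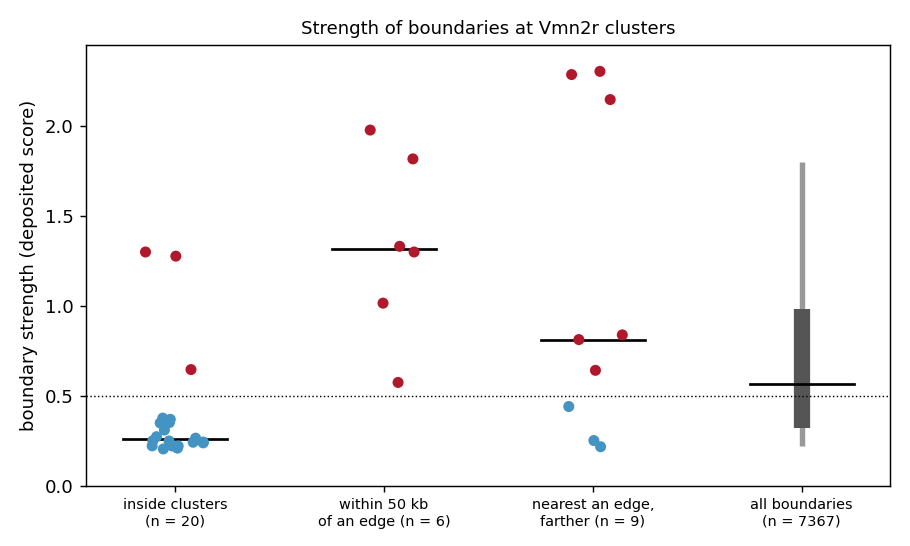
Deposited strength of single boundaries (points, red strong, blue weak, with medians as lines) inside the Vmn2r clusters, within 50 kb of a cluster edge, and nearest an edge but farther off and outside, beside all 7367 boundaries (median, thick bar for the quartiles, thin bar for the 5th to 95th percentile). The dotted line is the strong threshold of 0.5. The strong boundary of 1.30 in Vmn2r7 appears both inside and near an edge, 17 of the 20 inside are below 0.5 and all 6 near an edge are above it.

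The boundaries within 50 kb of the outer edges of the arrays were all strong. A boundary midpoint lay within 50 kb of 6 of the 18 edges (33.3%, 16.3 to 56.3), against 30.6% of all 5 kb bins of the same chromosomes. The number of edges with a boundary was thus near the background, while strong boundaries were 6 of 6 there, against 55.0% of all boundaries. Vmn2r8 to Vmn2r17 was the only cluster with such a boundary outside both ends: one of 1.82 lay 34.3 kb before Vmn2r8, in Rnf212, and one of 0.574 lay 9.04 kb past Vmn2r17. A boundary of 1.33 lay 36.2 kb before Vmn2r90, one of 1.98 lay 37.8 kb past Vmn2r117 and one of 1.01 lay 44.0 kb before Vmn2r1. The sixth was the boundary of 1.30 in Vmn2r7, and with the RefSeq model of that gene 5 of 18 edges remained.

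Counting strong boundaries alone, 6 of 18 edges compare with 16.9% of bins, a ratio of 1.97 (0.961 to 3.32). At 25 kb in place of 50 kb a single edge, that of Vmn2r17, had a boundary, against 16.1% of bins. Farther off, the nearest boundaries were of both classes. Strong ones of 2.30 and 2.28 lay 118 kb before Vmn2r65 and 406 kb before Vmn2r19. Weak ones of 0.217, 0.251 and 0.440 lay 88.4 kb before Vmn2r57, 119 kb before Vmn2r29 and 401 kb past Vmn2r52, and one of 0.349 lay 329 kb from the Vmn2r76 edge, inside the cluster. The weak boundary of 0.440 was also the nearest to the Vmn2r37 edge, at 1354 kb the farthest of the 18.

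CTCF, a zinc finger protein found at many boundaries, has a core motif of 12 letters, which was searched on both strands within 10 kb of each boundary interval. None of the 20 boundaries inside Vmn2r clusters had a match (0 to 16.1%), against 23.9% of all boundaries, 30.2% of strong ones and 16.2% of weak ones. The clusters as a whole held 15 matches, or 1.31 per Mb, against 4.97 per Mb genome-wide. Of the 16 boundaries nearest a cluster edge, 2 had a match, both strong. These 2 sites are shown because they are the only matches at any boundary tied to a Vmn2r cluster. They are given 5′ to 3′ on the forward strand of GRCm38.p6, with the matched letters in capitals, at chr3:64039899-64039918 before Vmn2r1 and chr7:84805413-84805432 before Vmn2r65.
Vmn2r1 edge site: ccagCCAGCAGATGGCgccc
Vmn2r65 edge site: aaagCCACTAGGTGGCagtc

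The first site lay 2.41 kb to the right of the midpoint of the boundary of 1.01, towards the cluster, and the second lay 12.1 kb to the left of the midpoint of the boundary of 2.30, away from it. A match is a description of the letters and not a bound site, since CTCF binding was not measured.

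Seen through strong boundaries alone, most arrays were undivided. All TSSs of 6 of the 9 clusters lay between the same pair of strong boundaries, and in the other 3 a single gene was set apart: Vmn2r90, Vmn2r57 and, by its GENCODE start, Vmn2r7. The 21 genes from Vmn2r124 to Vmn2r110 shared an interval of 3110 kb with 6 weak boundaries inside, between strengths of 1.28 and 0.641. On chromosome 7, Vmn2r65 to Vmn2r76 and the next run, Vmn2r77 to Vmn2r79, together 15 genes, shared 2575 kb between strengths of 2.30 and 0.893. Whole clusters between strong boundaries were 6 of 9 (66.7%) for Vmn2r, 6 of 10 (60%) for Vmn1r and 21 of 33 (63.6%) for odorant receptor genes. Between boundaries of either class they were 4 of 9 (44.4%) for Vmn2r, 2 of 10 (20%) for Vmn1r and 14 of 33 (42.4%) for odorant receptor genes. For these shares odorant receptor symbols with a -ps suffix were not admitted. No test was made of these shares.

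Few Vmn2r promoters lay at a boundary. The TSS of 7 of 120 genes lay no more than 10 kb outside a boundary interval (5.83%, 2.85 to 11.6), against 13.0% of all 21728 protein-coding TSSs. For Vmn1r genes it was 11 of 206 (5.34%) and for odorant receptor genes 67 of 1133 (5.91%). Vmn2r80 on chromosome 10 was the 1 gene of the 7 at a strong boundary, of 0.531 and 8.73 kb from its TSS. The other 6 were at weak boundaries. Vmn2r86 lay 3.55 kb from the midpoint of a boundary of 0.231, Vmn2r56 lay 2.50 kb from one of 0.233 and Vmn2r72 lay 2.60 kb from one of 0.273. On chromosome 17, Vmn2r101, Vmn2r99 and Vmn2r104 lay 5.27, 10.55 and 10.84 kb from boundaries of 0.369, 0.204 and 0.264.

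Gene bodies showed a smaller difference. A boundary interval overlapped 12 of the 120 Vmn2r gene models (10.0%), against 15.6% of all protein-coding gene models. They were the 7 genes above and Vmn2r7, Vmn2r59, Vmn2r60, Vmn2r69 and Vmn2r96. In 7 of the 12 the boundary covered part of an exon, namely Vmn2r86, Vmn2r104, Vmn2r56, Vmn2r59, Vmn2r60, Vmn2r69 and Vmn2r72. None of the 12 boundaries overlapped more than 1 Vmn2r gene.

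Vmn2r genes lay in long intervals between boundaries. The interval around a Vmn2r TSS had a median length of 710 kb (95% interval of the median 515 to 990, quartiles 350 and 1475, 117 genes), against 280 kb (quartiles 195 and 410) for 21395 other protein-coding genes. Long intervals were shared by the other chemoreceptor families. Their medians were 515 kb (quartiles 355 and 3530) for 203 Vmn1r genes and 560 kb (330 and 790) for 1132 odorant receptor genes. Vmn2r86, Vmn2r87 and Vmn2r18 lay past the last boundary of their chromosome and had no interval. The 117 genes shared 35 intervals, so they are not independent values. Counted once each, the 35 intervals had a median of 385 kb, against 265 kb for all 7347 intervals, and 22 of them were longer than 265 kb. The 35 were taken because they hold a TSS, which favours long intervals, while the 7347 include intervals without one. A like median for intervals that hold other coding genes is not given.

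**Figure D3:**
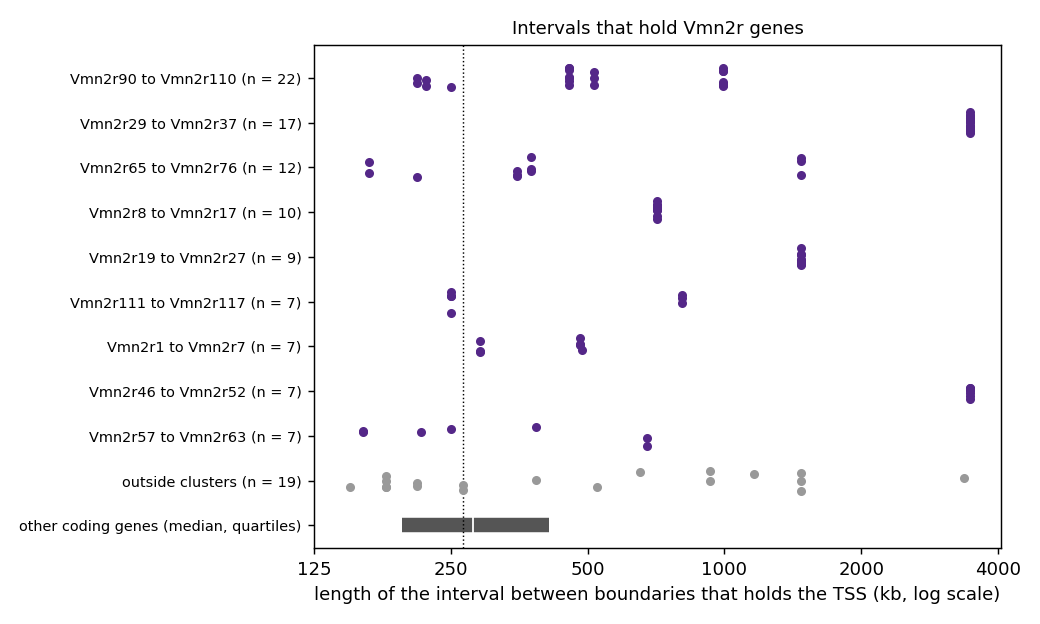
Length of the interval between boundaries that holds each Vmn2r TSS (log scale, kb), by cluster (purple points, jittered vertically, 1 per gene) and for genes outside clusters (grey points), above the median and quartiles of other coding genes (bar). The dotted line is the median of all intervals, 265 kb. The 24 genes of 2 clusters on chromosome 7 share the interval of 3465 kb.

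The longest of these intervals spanned chromosome 7 from 7112500 to 10577500, 3465 kb, longer than 99.9% of all intervals. It held 24 genes from Vmn2r29 to Vmn2r52, both arrays without a boundary, and ended at weak boundaries of 0.251, in the zinc finger gene Zfp954, and 0.440, in Vmn1r69. Unique sequence made up 18.6% of it, and 50 kb were unassembled. Without these 24 genes, left out after seeing the data, the median of the other 93 was 485 kb. The next, 3370 kb on chromosome X, held Vmn2r121 alone, with 10.8% unique sequence and 500 kb unassembled, although the gene itself was 84.1% unique. The share of reads lost in such sequence was not measured, and its part in the length of these intervals was not tested.

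Long intervals also occurred where more of the sequence was unique than in these, though less than the 83.6% genome-wide. All 9 genes of Vmn2r19 to Vmn2r27, among them Vmn2r26, a receptor for peptide ligands of class I major histocompatibility molecules, shared 1475 kb on chromosome 6 with 56.9% unique sequence and ends of 2.28 and 0.838. These genes were unevenly unique, from 0% in Vmn2r21 to 86.4% in Vmn2r24. Vmn2r74 to Vmn2r79 shared another 1475 kb on chromosome 7, with 78.3% unique sequence. Vmn2r104 to Vmn2r110 shared 990 kb with 80.4% unique sequence, and Vmn2r120 lay alone in 1160 kb with 77.2%. Vmn2r88, a receptor for haemoglobin, and Vmn2r89 shared 930 kb on chromosome 14 with 62.8% unique sequence. The part of repeated sequence in these lengths was not tested. The shortest intervals held Vmn2r81 (150 kb), Vmn2r59 and Vmn2r60 (160 kb) and Vmn2r72 and Vmn2r73 (165 kb), each with at least 1 weak end.

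Some promoters in the longest interval were exact copies of each other. The RefSeq promoter window, 250 bases before to 50 after the start, was identical in all 300 positions between Vmn2r34 (chr7:7689349-7689648, reverse strand) and Vmn2r45 (chr7:8488910-8489209, reverse strand), which lie in the same boundary-free array. This pair ties for the most alike of its array with Vmn2r31 and Vmn2r33, whose promoters were also 100% identical. So were those of Vmn2r32 and Vmn2r49, in the same interval. Over the 136 pairs of Vmn2r29 to Vmn2r37 promoters the median identity was 88.3% (43.3 to 100%). The median was 82.3% in Vmn2r46 to Vmn2r52 and highest, at 96.3%, in Vmn2r111 to Vmn2r117. The shared sequence, GRCm38.p6 and 5′ to 3′ as for the others, is given once, without capitals because no base differs. For comparison, Vmn2r85 (chr10:130429563-130429862) and Vmn2r86 (chr10:130455845-130456144), neighbours on the reverse strand of chromosome 10, are shown. The weak boundary of 0.231 lies between their starts. Their promoters were the most alike of neighbours parted by a boundary, among promoters within 1 kb of the TSS used here. That limit left out Vmn2r6 and Vmn2r7, parted by the GENCODE start of Vmn2r7 and 99.3% identical. The promoters of Vmn2r85 and Vmn2r86 differed at 30 aligned positions (90% identity), with capitals marking the letters that differ or have no partner.
Vmn2r34 and Vmn2r45: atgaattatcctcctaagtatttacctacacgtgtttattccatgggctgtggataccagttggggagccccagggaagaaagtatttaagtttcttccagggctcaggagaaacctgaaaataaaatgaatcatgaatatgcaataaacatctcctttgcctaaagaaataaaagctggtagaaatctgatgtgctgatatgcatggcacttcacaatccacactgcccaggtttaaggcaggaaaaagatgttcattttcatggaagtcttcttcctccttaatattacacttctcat
Vmn2r85: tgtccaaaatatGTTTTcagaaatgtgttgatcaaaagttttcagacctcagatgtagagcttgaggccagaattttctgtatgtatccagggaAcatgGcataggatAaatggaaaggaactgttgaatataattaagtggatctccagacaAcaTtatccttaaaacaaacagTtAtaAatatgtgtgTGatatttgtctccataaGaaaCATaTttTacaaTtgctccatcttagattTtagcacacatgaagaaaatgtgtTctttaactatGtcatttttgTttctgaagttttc
Vmn2r86: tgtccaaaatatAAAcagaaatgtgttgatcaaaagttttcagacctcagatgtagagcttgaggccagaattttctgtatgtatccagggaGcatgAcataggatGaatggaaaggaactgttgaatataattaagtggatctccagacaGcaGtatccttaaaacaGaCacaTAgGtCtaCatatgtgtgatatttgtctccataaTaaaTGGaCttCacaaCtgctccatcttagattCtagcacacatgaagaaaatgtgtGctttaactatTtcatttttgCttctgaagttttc

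In repeated DNA a short read has more than 1 place to align, so the share of unique sequence was set beside the boundary density in windows of 250 kb. Among windows up to 50% unique, the 15 in Vmn2r clusters held 1 boundary, 0.267 per Mb (0.00675 to 1.49), against 0.547 per Mb (0.404 to 0.723) in the 378 others. That boundary lay in a window of 50% unique sequence, at the limit of the class, and the other 14 cluster windows held none. Above that the densities were close. They were 2.50 against 2.46 per Mb at 50 to 60% unique, 3 against 2.66 at 60 to 70%, 2.67 against 2.48 at 70 to 80% and 2.67 against 2.71 at 80 to 90%, for windows inside and outside Vmn2r clusters. No cluster window was over 90% unique, where the others held 3.48 per Mb. From 50 to 90% unique the cluster values rest on 8, 8, 12 and 3 windows, in the same order. Their counting intervals were 0.812 to 5.83, 1.10 to 6.53, 1.15 to 5.25 and 0.323 to 9.63 per Mb. In each class with cluster windows the counting interval covered the value of the others. Intervals this wide would also cover large differences.

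**Figure D4:**
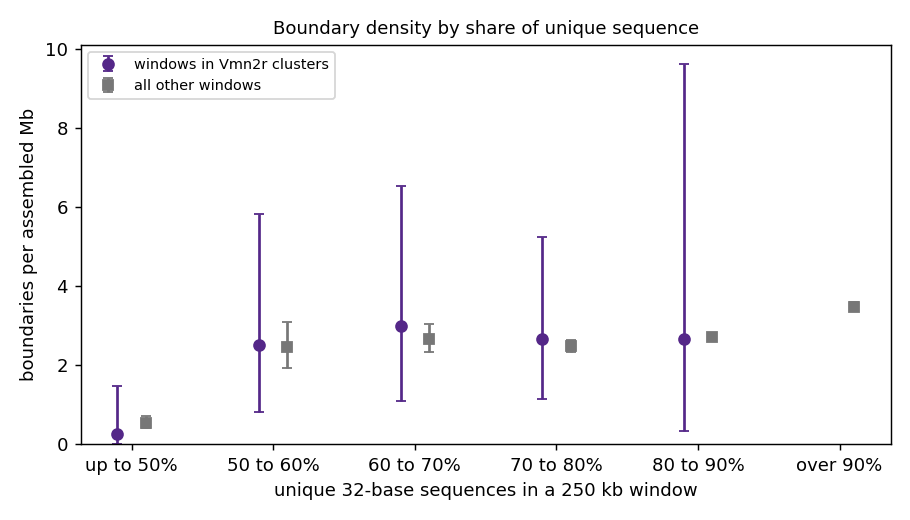
Boundaries per assembled Mb in 250 kb windows, grouped by the percentage of 32-base sequences that occur once in the genome, for windows centred in Vmn2r clusters (purple circles) and all other windows (grey squares). Bars are 95% exact Poisson intervals. The cluster value is 0.267 per Mb up to 50% unique and 2.50 to 3 per Mb from 50 to 90%, and no cluster window is over 90%.

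The share of strong boundaries by class rests on small counts. Of the 21 boundaries in cluster windows from 50 to 90% unique, 5 were strong: 1 of 5 at 50 to 60%, none of 6 at 60 to 70%, 3 of 8 at 70 to 80% and 1 of 2 at 80 to 90%. In the other windows of these classes, in the same order, 47.2%, 38.6%, 33.7% and 55.1% were strong. These windows are centred in a cluster and reach past its ends, so they hold 22 boundaries and not the 20 inside.

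The sequence of the longest interval was largely repeated within that interval. In Vmn2r29 to Vmn2r37, 92.4% of sampled 32-base sequences were repeated, and 90.8% of those outside soft-masked repeats were. Over the whole longest interval 81.4% were repeated, and 65.4% of these had all their copies within that interval. In Vmn2r90 to Vmn2r110, by contrast, 25.7% were repeated and 11.1% of those outside soft-masked repeats. The reference genome is of strain C57BL/6J and the mice were 129P2/OlaHsd, so copy numbers in these mice were not known.

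Coding sequences showed the same contrast. Identity was counted as the share of the longer coding sequence left after edit operations. The closest other Vmn2r gene was 94.4% identical at the median (56.8 to 99.8%, 120 genes), against 62.8% over all 7140 pairs. The 56.8% was that of Vmn2r89, with 1521 coding bases against 2541 in its closest gene, Vmn2r121, a difference that lowers this measure. The closest gene lay in the same cluster for 83 of the 98 genes in clusters. It lay in the same interval for 76 of the 120. These include Vmn2r87, which shares with its closest gene, Vmn2r86, the stretch past the last boundary of the chromosome. The median to the closest gene was 99.1% in Vmn2r29 to Vmn2r37, 98.8% in Vmn2r46 to Vmn2r52 and 91.1% to 97.3% in the other 7 clusters. No gene of Vmn2r46 to Vmn2r52 had its closest relative in its own cluster, and 6 of the 7 had it elsewhere in the 3465 kb interval.

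Neighbours parted by a boundary were nearly as alike as neighbours that were not. The 20 neighbouring Vmn2r pairs parted by a boundary had a median coding identity of 89.7% (quartiles 87.4 and 94.95), against 91.4% (87.7 and 94.0) for the 81 pairs not parted. Parted neighbours lay farther apart, at a median of 165 kb between TSSs, against 80.3 kb.

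**Figure D5:**
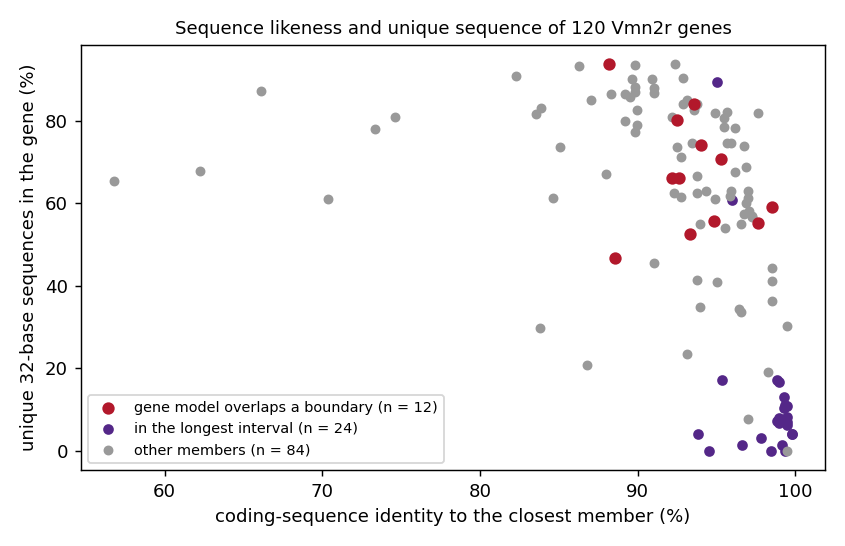
Each of the 120 Vmn2r genes by coding-sequence identity to its closest member (horizontal axis, %) and share of unique 32-base sequences in the gene (vertical axis, %). Red points are the 12 gene models that overlap a boundary, purple the 24 genes of the longest interval and grey the other 84. Most purple genes sit at the lower right, with little unique sequence and high identity (cluster medians of 99.1% and 98.8%), and the lowest red gene is 46.8% unique.

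The 10 smaller runs held 3 boundaries. Vmn2r80 to Vmn2r83 on chromosome 10 (79148769 to 79493585) had the strong boundary of 0.531 in Vmn2r80 and a weak one of 0.209, and one of 1.93 lay 23.9 kb past Vmn2r83. Vmn2r84 to Vmn2r87, near the end of the same chromosome, had the boundary of 0.231 in Vmn2r86. On chromosome 7, Vmn2r53 to Vmn2r56 (12562851 to 12735004) filled an interval of 180 kb almost exactly, with a boundary of 0.548 at 5.35 kb before Vmn2r53 and one of 0.233 at 2.50 kb past Vmn2r56. It was the only Vmn2r run with boundaries within 10 kb of both ends. Vmn2r28 and Vmn2r118 lay 24.8 and 22.9 kb from boundaries of 0.325 and 0.705.

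Of the 120 genes, 114 matched a RefSeq promoter, and for 102 of these it began within 1 kb of the TSS used here. Their median GC content was 38.0%, against 52.7% over all 27025 promoters. TAATTA, a homeodomain core, occurred in 20 of 114 (17.5%), against 5.31% of all promoters, and TATAAA in 26 (22.8%), against 14.2%. CANNTG, an E-box, occurred in 97.4%, against 72.1%. The CTCF motif occurred in none, which allows up to 2.63%, against 0.551%. All were searched on both strands, and a CTCF match can contain CANNTG. Promoters low in GC hold letters such as TAATTA more often, and these shares were not adjusted for it.

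Genes that act with Vmn2r receptors were at boundaries in small numbers, to be read against 13.0% of all protein-coding TSSs. Of 7 transduction genes 1 (14.3%) was in a boundary window, Gnao1, which encodes Gαo, at a weak boundary of 0.380. Of 5 regulators of basal vomeronasal neurons 2 (40%) were: Tfap2e at 0.461 and Bcl11b at 2.17. None of 9 H2-Mv genes, class I histocompatibility genes co-expressed with Vmn2r receptors, or B2m was at one, and none of 7 formyl peptide receptor genes, the TSS of Fpr3 lying 29.6 kb from the boundary in its gene. Among ligand genes, 2 of 22 Mup genes (Mup4 and Mup6, at 1 boundary of 1.74) and 1 of 15 Esp genes (Esp6, 0.206) were. Of 19 other family C receptor genes 2 were, Grm2 at 0.586 and Grm4 at 2.24. With lists this short no difference from the background was detectable.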

How the data were processed

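In situ Hi-C boundaries of 2 pooled biological replicates were analysed. Contacts were mapped to GRCm38, per the submitters' processing notes, and combined before boundaries were called. The deposited strength of each boundary is the authors' score. The sources used here do not give the aligner, the caller or their settings, and the read depth is unknown.

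Boundaries were joined to the GRCm38 sequence and its GENCODE gene models. A TSS was the 5′ end of a model. Clusters were runs of at least 5 genes less than 500 kb apart, a boundary lay inside by its midpoint, edges were the outermost gene ends with a reach of 50 kb, and TSS windows reached 10 kb past the interval on both sides. For unique sequence, a 32-base sequence was taken every 250 bp and called unique if neither strand of the genome held another copy. Coding sequences were aligned with edlib 1.3.9.post1. Promoters are RefSeq sequences (GRCm38.p6).

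With 1 pooled list there is no test over samples. Wilson and exact Poisson intervals (95%, scipy 1.17.1) cover counting error. The counting functions were tested on simulated data. Named genes are those at boundaries, at the ends of clusters and runs, in the longest and shortest intervals, those with known ligands or broad expression, and list members in boundary windows. The rule for members uses symbols alone, but the family and the lists were chosen for study with earlier results of these data known. The alternatives changed the boundaries counted, the cluster rule, the distances, the gene models and the measure of unique sequence. Insulation and compartment tracks were not used here. Python 3.11.15, numpy 2.4.6, pandas 2.3.3, numba 0.67.0 and matplotlib 3.10.9 were used.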

Additional observations from a re-analysis of the deposited data

How the results depend on the processing

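Of 43 alternative settings over 6 results, 31 moved the value by less than its counting interval and 12 moved it by more, none reversing a direction among the densities and TSS shares. The density ratio inside clusters, 0.594, was 0.160 with strong boundaries alone (3 boundaries), 0.235 with the 1842 strongest (2) and 0.952 per unique sequence. The ratio of edges with a boundary to bins, 1.09, was 0.346 at 25 kb (1 edge), 1.97 with strong boundaries alone and 3.60 with the 1842 strongest (5 edges), and it fell below 1 at 100 kb (0.807), with RefSeq models (0.909) and with pseudogenes joined (0.980) as well as at 25 kb. The TSS ratio, 0.450, was 0.0995 with strong boundaries alone (1 TSS). The median interval, 710 kb, was 385 kb with each interval once and 485 kb without the members of the longest interval. Between strong boundaries it was 2575 kb, counted once per gene (115 genes). The median of all 4032 strong intervals, 400 kb, counts each interval once, so these medians are not like for like. The unique share, 52.2%, was 63.6% without the clusters under 25% unique, and 47.7% of bases were not soft-masked. RefSeq models, the clusters left out and the members left out were chosen after seeing the data. No paired analysis was possible because both replicates are pooled in 1 list and no result comes from a test, and for the same reason no replicate could be left out. The depth of the map is unknown, and positions are known to 5 kb.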

Other observations

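Vmn2r pseudogenes, which are not among the 120 genes, had few starts at boundaries. The annotated starts of 5 of the 116 other Vmn2r gene models lay in a boundary window, against 13.0% of all protein-coding TSSs. Vmn2r-ps62 lay at the strong boundary of 2.30 before Vmn2r65, the same boundary that has a CTCF match on its left. The other 4 were at weak boundaries: Vmn2r-ps133 at 0.351, Vmn2r-ps68 at 0.222, Vmn2r-ps4 at 0.221 and Vmn2r-ps56 at 0.209. With pseudogenes joined to the receptor genes, 12 of 236 starts lay in a window, 0.392 (0.226 to 0.669) of the share of all protein-coding TSSs.

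The 32-base sequence of the CTCF match before Vmn2r65 had 2 copies on chromosome 7, while that before Vmn2r1 had 1 on its chromosome. The Vmn2r29 to Vmn2r37 array held 5 CTCF matches, 2.51 per Mb and all on the reverse strand, and no boundary. All 17 genes of the array are on that strand too. Whether the 5 matches are copies of 1 repeated sequence was not checked. Unique sequence made up 7.64% of that array.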
